A study of Oryza sativa with 8 samples.

Results

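Gibberellin (GA) is a plant growth hormone that cells make, sense and break down through a chain of gene products, and 7 genes of that chain were followed here in cultured rice cells given GA or abscisic acid (ABA, which acts in stress responses and in maturing seeds). The genes were found by name in the rice gene annotation, from a list drawn up with earlier results of these data known. They are GA20OX3 and CYP88A5 (KAO) for synthesis, CYP714D1 (EUI1) for breakdown, gid1 for the receptor, SPY for signalling, and CIGR1 and CIGR2 for the response. Each had 1 probe, so they made up 7 of the 17782 probes tested and 7 of 15636 genes with a probe of their own.

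The samples were callus, a mass of undifferentiated cells, grown out of scutellum tissue of Nipponbare, a japonica rice. All callus grew for 30 d on Murashige and Skoog medium with 10 µM of the synthetic auxin 2,4-D, and treated callus then spent 3 d with 50 µM of ABA or of GA. The labels do not say which gibberellin was used, whether the auxin stayed in the hormone medium, or how many calli went into a sample. Each of 8 two-colour arrays (NIAS 22K rice oligonucleotide array) held treated and untreated callus in the dyes Cy3 and Cy5. There were 4 arrays for each hormone, of which 2 had the treated sample in Cy3 and 2 in Cy5. The arrays are named by the numbers in the labels, which are 24, 20, 19 and 23 for ABA and 04, 05, 07 and 08 for GA.

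Values are log2 of treated over untreated, so that 0 is no difference, and the mean is given ± SD over n = 4 arrays. A change was called at an adjusted p under 0.05 (limma, Benjamini-Hochberg over all probes). The tests use the error of the fitted mean, from a fit with a dye term and a spread moderated over all probes, and not this SD. With 4 arrays per hormone the number of arrays limits the precision. The labels do not say that the arrays held separate cultures or whether they shared an untreated sample, so a p-value here weighs a change against the spread among these arrays alone, which may be technical. The deposited ratios followed the dyes and not the treatment: over the probes tested, correlations between the opposite dye orientations lay between −0.605 and −0.506 within ABA and between −0.816 and −0.700 within GA. The sign was therefore turned wherever Cy3 marked the treated callus. The direction of every value rests on reading the table as Cy5 over Cy3, which is how the software of this array maker writes its ratios, and is likely but not certain. Were it the reverse, every rise below would be a fall of the same size. Some genes, GA20OX3 among them, had also been looked at when the dye direction was first set. A ratio holds no level, so neither the abundance of these transcripts nor the labelled tissue could be checked, and less RNA per cell cannot be told apart from fewer cells of a type.

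In the pathway, GA 20-oxidases such as GA20OX3 carry out late steps towards active GA, after CYP88A5, an ent-kaurenoic acid oxidase, has made the first GA. CYP714D1 is a cytochrome P450 that inactivates GAs. gid1 encodes the soluble receptor which, with GA bound, brings about the destruction of the DELLA protein that holds GA responses back, and SPY encodes a glycosyltransferase that restrains GA signalling. CIGR1 and CIGR2 are GRAS-family transcription regulators named for their quick induction by chitin fragments and GA in rice cells. Active GA is known to lower the transcripts of GA 20-oxidases and GA 3-oxidases and to raise those of GA 2-oxidases, a negative feedback, and in Arabidopsis it also lowers receptor transcripts. The GA arrays were read with the question of which of these genes changed in those directions.

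Under GA, GA20OX3, CIGR2 and gid1 were lower than in untreated callus by 2.04-fold, 1.98-fold and 1.61-fold, and CYP88A5 was 1.30-fold higher. CIGR1 fell slightly, and CYP714D1 and SPY did not pass. In all, 4 of the 7 genes fell and 1 rose, while over the whole array 22.8 percent of probes fell, 26.2 percent rose and 49.0 percent were called. The median size of change, without its sign, was 0.38 for the 7 genes and 0.11 over all probes. It was 0.06 for 7 other probes of the pathway, described below. The 7 genes were chosen with earlier results of these data known, so their counts and larger median size are not independent of that choice. With so large a share of the array called, a call alone sets a gene little apart. The called changes of the 7 genes under each hormone are therefore given with their place among all probes.

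On the GA arrays GA20OX3 stood at −0.95 and −0.91 with the treated sample in Cy3 (arrays 04 and 05) and at −1.11 and −1.16 with it in Cy5 (arrays 07 and 08). All 4 arrays were low, and the Cy5 pair was a little lower than the Cy3 pair. The mean of −1.03 ± 0.12 was called (limma adjusted p = 1.54e-08, 95% interval −1.10 to −0.96), and 122 of the 17782 probes had a lower mean. GA20OX3 was among the genes looked at when the dye direction was first set, so its sign is not independent support for that direction.

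CYP88A5, the earlier enzyme of the same route, went the other way. Its GA arrays stood at 0.13 and 0.37 (04 and 05) and at 0.46 and 0.56 (07 and 08). All 4 arrays were above 0, with array 04 the nearest to it. The mean of 0.38 ± 0.18 was called (limma adjusted p = 1.36e-04, 95% interval 0.27 to 0.49), and 1426 probes had a higher mean. The members of the synthesis route thus did not move together.

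The receptor gene gid1 stood at −0.54 and −0.58 on GA arrays 04 and 05 and at −0.67 and −0.96 on arrays 07 and 08. Every array was low, array 08 the most. The mean of −0.69 ± 0.19 was called (limma adjusted p = 1.76e-05, 95% interval −0.83 to −0.55), with 325 probes lower.

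CIGR2 stood at −1.06 and −1.02 on GA arrays 04 and 05 and at −0.86 and −1.02 on arrays 07 and 08. The values lay close together in both dyes. The mean of −0.99 ± 0.09 was called (limma adjusted p = 1.08e-07, 95% interval −1.08 to −0.89), and 137 probes had a lower mean. CIGR2 is named for induction by GA within a short time, and the direction measured here after 3 d was a fall.

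CIGR1, the other GRAS gene of that name, stood at −0.22 and −0.21 on GA arrays 04 and 05 and at −0.11 and −0.01 on arrays 07 and 08. Its mean of −0.14 ± 0.10 passed narrowly (limma adjusted p = 0.0423, 95% interval −0.25 to −0.03), and 43.4 percent of all probes had a larger change in size. The call ended without the dye term (adjusted p = 0.283), with array weights (adjusted p = 0.767, at −0.02), with all features tested (adjusted p = 0.0606), at the stricter adjusted p of 0.01, and when any of arrays 20, 19, 04, 07 or 08 was left out (adjusted p from 0.0507 to 0.163). The fall of CIGR1 therefore depended on these settings.

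CYP714D1, the inactivating enzyme, stood at 0.02 and 0.05 on GA arrays 04 and 05 and at −0.11 and −0.17 on arrays 07 and 08. The sign followed the dye, and the mean of −0.05 ± 0.10 did not pass (limma adjusted p = 0.200, 95% interval −0.13 to 0.02). SPY stood at 0.08 and 0.12 on arrays 04 and 05 and at 0.00 and 0.03 on arrays 07 and 08, with a mean of 0.06 ± 0.05 (limma adjusted p = 0.251, 95% interval −0.03 to 0.14). SPY passed with a dye term for each hormone (adjusted p = 0.0473) and with array weights, where it stood at 0.14 (adjusted p = 0.00372).

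**Figure D1:**
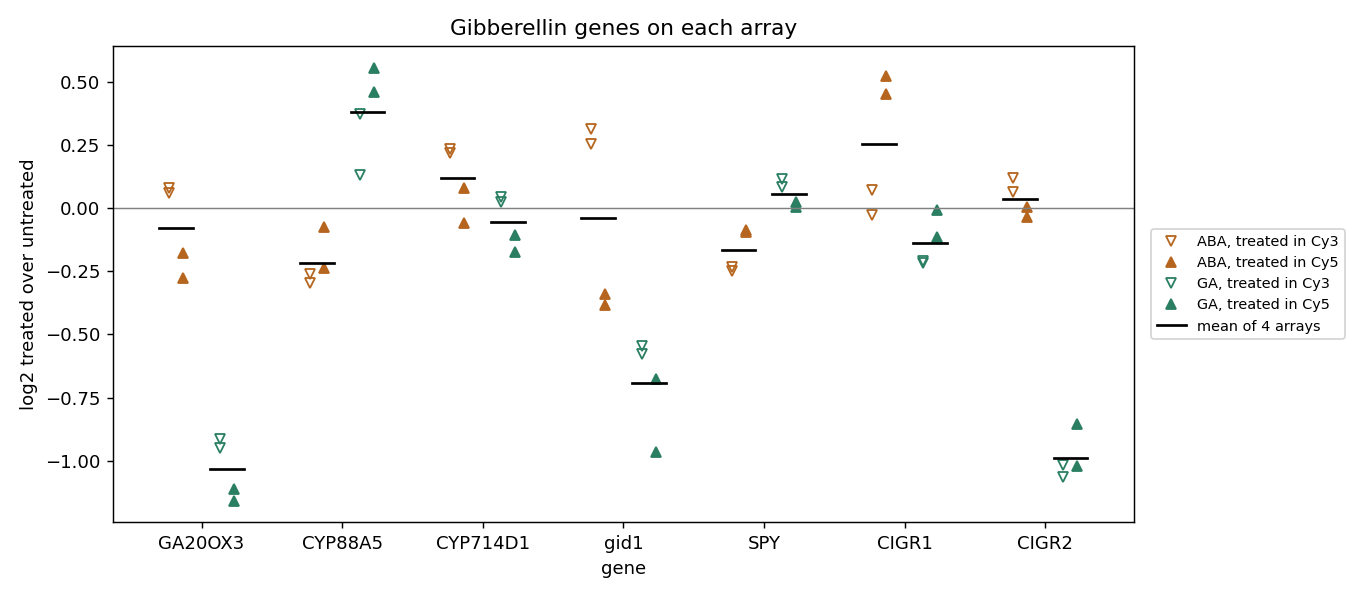
Log2 of treated over untreated (vertical axis) for each of the 7 gibberellin genes (horizontal axis), 1 triangle per array. Brown is ABA and green GA, open triangles pointing down have the treated sample in Cy3, filled triangles pointing up have it in Cy5, and black bars are means of 4 arrays. The GA arrays of GA20OX3, gid1 and CIGR2 all lie at −0.54 or lower, those of CYP88A5 all lie above 0, and the ABA arrays of gid1 split by dye.

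Set beside the known feedback, GA20OX3 had the direction in which GA lowers its own synthesis. The fall of gid1 had the direction given above for receptor transcripts in Arabidopsis. CYP88A5 rose and the breakdown gene CYP714D1 was not called. The feedback as given above names neither gene, so it sets no direction to read them against. The usual feedback targets beyond GA20OX3 were not covered: GA20OX2 (SD1), the GA 3-oxidases and the GA 2-oxidases were not analysed here, nor were the DELLA gene SLR1 and its relative SLRL1. Among the genes followed, only GA20OX3 and gid1 could be read against that feedback. GA20OX3 had been looked at when the dye direction was first set. These arrays therefore do not decide whether the pathway as a whole was under feedback.

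Under ABA the same genes shifted little. CIGR1 (1.19-fold) and CYP714D1 (1.09-fold) rose, CYP88A5 (1.16-fold) and SPY (1.12-fold) fell, and GA20OX3, gid1 and CIGR2 did not pass. That is 2 up and 2 down of 7, where 41.8 percent of all probes were called (3209 up and 4221 down). Without array 24 the call held for 2 of the 7, and without the dye term also for 2. The median size was 0.12 for the 7 genes and 0.09 over all probes. Of all probes, 15.9 percent changed more in size than CIGR1 and 20.4 percent more than CYP88A5. For SPY the share was 29.1 percent and for CYP714D1 41.8 percent.

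CIGR1 stood at −0.03 and 0.07 on ABA arrays 24 and 20, where Cy3 marked the treated callus, and at 0.45 and 0.52 on arrays 19 and 23, where Cy5 did. The rise was on the Cy5 pair, while the Cy3 pair lay near 0. The mean was 0.25 ± 0.27 (limma adjusted p = 0.00281), with 1100 probes higher, and without the dye term it did not pass (adjusted p = 0.0685).

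CYP88A5 stood at −0.26 and −0.30 on ABA arrays 24 and 20 and at −0.24 and −0.07 on arrays 19 and 23. It was below 0 on all 4 arrays, with a mean of −0.22 ± 0.10 (limma adjusted p = 0.00545). SPY was also below 0 on every ABA array. It stood at −0.25 and −0.23 on arrays 24 and 20 and at −0.09 on each of arrays 19 and 23, with a mean of −0.17 ± 0.09 (limma adjusted p = 0.00722). Without array 24 the call of SPY ended (adjusted p = 0.0538).

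CYP714D1 stood at 0.23 and 0.22 on ABA arrays 24 and 20 and at 0.08 and −0.06 on arrays 19 and 23. The Cy3 pair was the higher one, and the mean was 0.12 ± 0.14 (limma adjusted p = 0.0161). Its call ended without the dye term (adjusted p = 0.187), at the stricter adjusted p of 0.01, and without array 24, 20 or 19 (adjusted p from 0.0635 to 0.0980).

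Of the 3 genes that were lowest under GA, none passed under ABA. gid1 stood at 0.25 and 0.31 on ABA arrays 24 and 20 and at −0.34 and −0.38 on arrays 19 and 23. The dye pairs had opposite signs and the mean was −0.04 ± 0.37 (limma adjusted p = 0.656, 95% interval −0.18 to 0.10), so the interval holds changes of either sign. GA20OX3 split the same way, with 0.08 and 0.06 on arrays 24 and 20 and −0.18 and −0.28 on arrays 19 and 23. Its mean of −0.08 ± 0.18 missed the threshold (limma adjusted p = 0.0710, 95% interval −0.15 to −0.01) and passed with a dye term for each hormone (adjusted p = 0.0334), with ABA fitted on its own arrays (adjusted p = 0.0296), with array weights (adjusted p = 0.0186) and without GA array 07 (adjusted p = 0.0418). CIGR2 stood at 0.06 and 0.12 on arrays 24 and 20 and at −0.04 and 0.00 on arrays 19 and 23, near 0 throughout, with a mean of 0.04 ± 0.07 (limma adjusted p = 0.519, 95% interval −0.06 to 0.13).

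**Figure D2:**
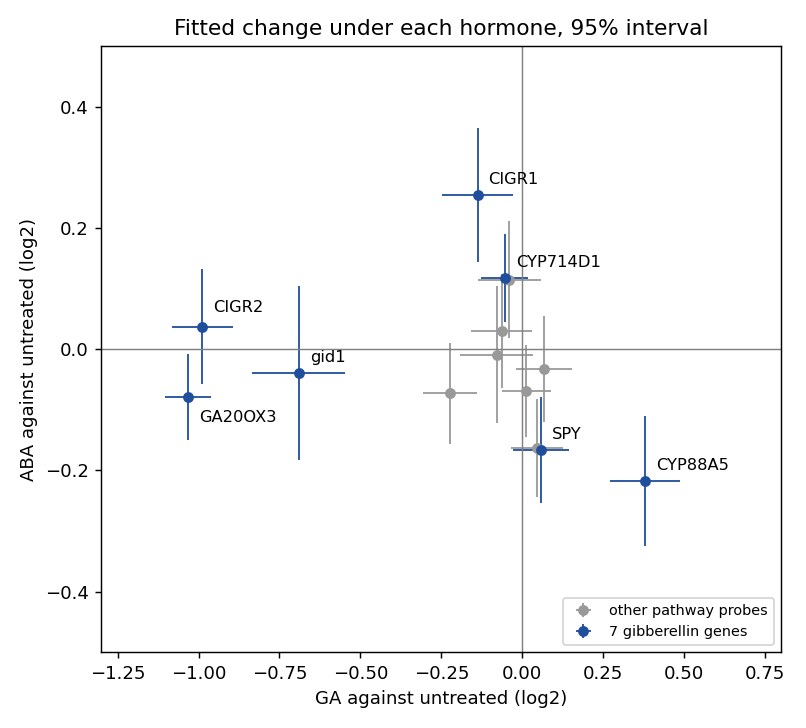
Fitted log2 change under GA (horizontal axis) and under ABA (vertical axis) of the 7 gibberellin genes in blue and of 7 other probes of the pathway in grey, with 95% intervals from limma; the 2 axes have different scales. GA20OX3, CIGR2 and gid1 lie far to the left at ABA values between −0.08 and 0.04, and CYP88A5 lies to the lower right.

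The hormones were then set against each other in the same fit. All 7 genes differed between ABA and GA at an adjusted p under 0.05, as did 50.0 percent of all probes. Relative to GA, ABA left CIGR2 higher by 1.03 (95% interval 0.89 to 1.16, limma adjusted p = 8.10e-07), GA20OX3 by 0.95 (0.85 to 1.05, limma adjusted p = 1.88e-07) and gid1 by 0.65 (0.45 to 0.85, limma adjusted p = 2.80e-04). For gid1 the difference was 0.84 between arrays that had Cy3 on the treated sample and 0.46 between those with it in Cy5. For GA20OX3 the dye pairs gave 0.999 and 0.907, and for CIGR2 they gave 1.13 and 0.92.

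CIGR1 was higher under ABA than under GA by 0.39 (limma adjusted p = 0.00129) and CYP714D1 by 0.17 (limma adjusted p = 0.0116). CYP88A5 was lower under ABA by 0.60 on the log2 scale, at −0.22 against 0.38 (limma adjusted p = 7.42e-05), and SPY was lower too, at −0.17 against 0.06 (limma adjusted p = 0.00753). Without the dye term the difference of CYP714D1 did not pass (adjusted p = 0.149). The ABA and GA arrays did not overlap for 5 of the 7 genes, against 36.1 percent of all probes, and overlapped for CYP714D1 and CIGR1. The array numbers of the hormones lie in separate ranges, and a batch effect and the hormone therefore cannot be told apart.

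**Figure D3:**
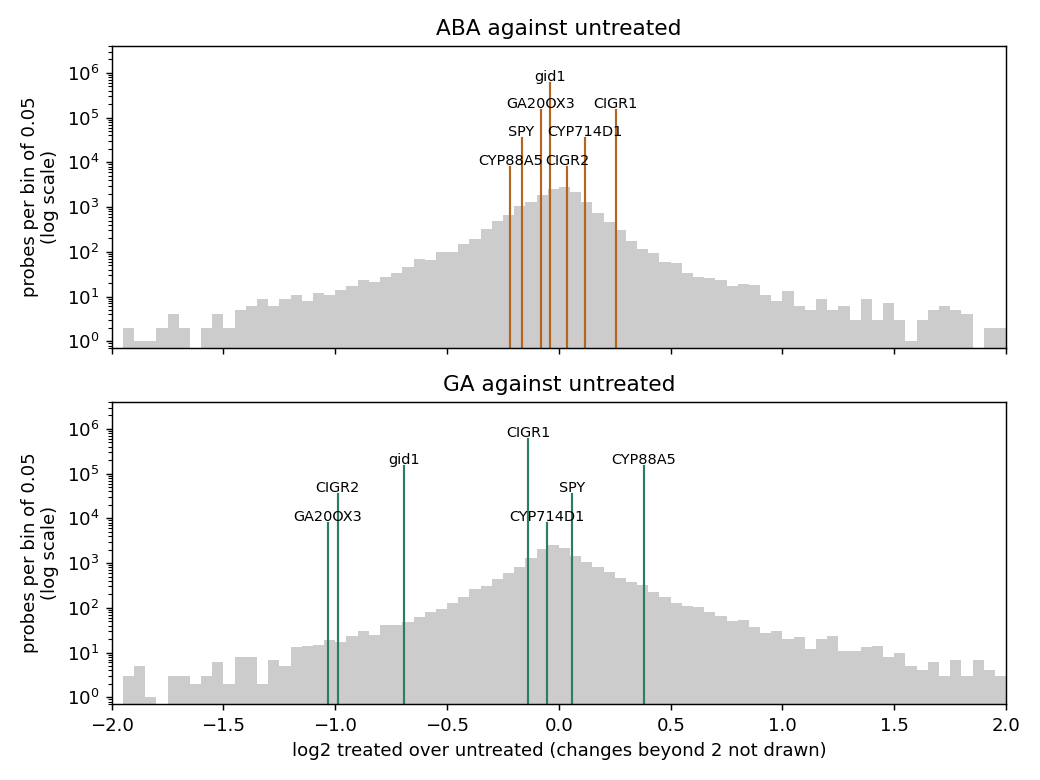
Number of probes (vertical, log scale) in bins of 0.05 of the fitted log2 change under ABA (upper) and GA (lower), for changes between −2 and 2, with a line at each of the 7 genes; line heights carry no value. Under ABA the 7 genes stay within −0.22 and 0.25, with 2200 probes below CYP88A5 and 1100 above CIGR1. Under GA the lines of GA20OX3, CIGR2 and gid1 stand in the thin lower tail.

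Beyond these genes, 6 other genes of the pathway were measured on 7 probes, from a list of names drawn up for synthesis, breakdown, signalling and response. Under GA 1 of the 7 probes fell, 0 rose by limma (0 also at an unadjusted p under 0.05) and 6 did not pass, while 49.0 percent of all probes were called and 22.8 percent fell. The median was −0.04, against −0.01 over all probes. The gene that fell is annotated with the synonyms of more than one ent-kaurene oxidase copy (D35, CYP701A6 and CYP701A19), and which copy its probe reads was not tested. Ent-kaurene oxidase acts before CYP88A5. The probe stood at −0.26 and −0.14 (GA arrays 04 and 05) and at −0.33 and −0.17 (07 and 08), below 0 on all 4, with a mean of −0.22 ± 0.09 (limma adjusted p = 7.80e-04). Under ABA 0 rose (1 at an unadjusted p under 0.05) and 1 of the 7 probes fell, that of YAB1 (OsYABBY1), a YABBY transcription factor, at −0.16 ± 0.13 (limma adjusted p = 0.00555), where 41.8 percent of all probes were called.

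The other pathway probes kept in these counts did not pass under either hormone. CPS1, the ent-copalyl diphosphate synthase that opens the route, stood at 0.11 ± 0.12 under ABA (limma adjusted p = 0.0589) and −0.04 ± 0.18 under GA. GAMYB, a transcription factor that acts downstream of GA on amylase genes, stood at −0.01 ± 0.19 and −0.08 ± 0.06. CYP714C1 and its neighbour CYP714C2, of the same P450 family as CYP714D1, ranged from −0.07 to 0.03 under ABA and from −0.06 to 0.07 under GA over 3 probes.

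Patterns were also matched over the 8 arrays, by the root mean square difference between a gene's values and those of 2470 other probes with a named gene. For CIGR2 the nearest were GA20OX3 (0.16), CYP734A6 (0.18) and CLPB-C (0.20), and for GA20OX3 the nearest were CLPB-C (0.14) and then CIGR2 (0.16) and BGLU31 (0.17). For gid1 they were GLO3 (0.10), LG2 (0.13) and BOP1 (0.14), and for CYP88A5 ARF9 (0.09), DCL2A (0.10) and KIN5A (0.11). The genes near the other members lay closer still. They were OsSNAT2, MDAR2 and OsSPX4 for CYP714D1 (each 0.05), TubA (0.04), the YAB1 gene (0.05) and KIN13A (0.06) for SPY, and the probes named aquaporin (0.07), AtMAP70-4 (0.08) and PORB (0.09) for CIGR1. The values compared come from the same 8 arrays, and the likeness is a description of them.

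Markers of embryo maturation, shoot meristem, green tissue and endosperm storage were counted in the same way. Over all probes 41.8 percent were called under ABA and 49.0 percent under GA. Of 8 embryo maturation markers, 8 rose under ABA (0.18 to 3.73) and 6 fell under GA (−2.83 to −0.01 over the list). Of 4 shoot meristem markers, 2 fell under ABA (−0.30 to 0.04) and 3 rose under GA (−0.03 to 0.74). Of 7 green tissue probes, 4 rose under ABA (−0.01 to 0.48) and 3 fell under GA (−0.82 to 0.15), and of 7 endosperm storage probes 2 rose under ABA (−0.09 to 0.23) and 0 were called by limma under GA (−0.15 to 0.15, with 2 at an unadjusted p under 0.05). Because ABA acts in maturing seeds, the embryo maturation markers cannot tell a response to the hormone from a change in cell type. Whether a change in the cells of the callus took part in the values of the gibberellin genes was not tested.

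**Figure D4:**
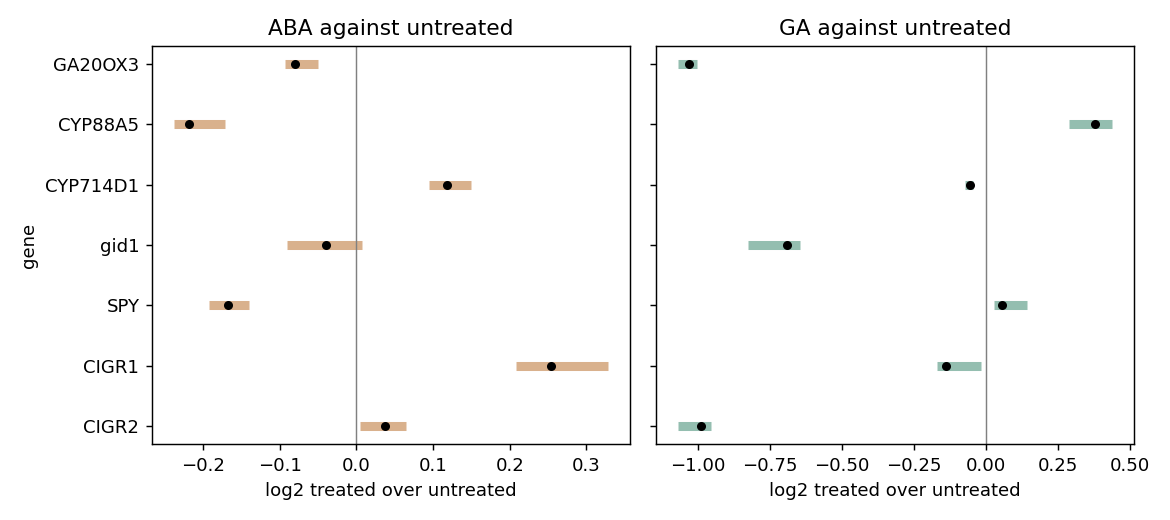
Fitted log2 change of each gene (black dot), for ABA (left) and GA (right). Each bar runs from the lowest to the highest value over the other ways of processing the arrays. The ratios left as deposited and the GA arrays with their sign reversed are not part of the bars. The 2 panels have different scales. Under GA the bars of GA20OX3 (−1.07 to −1.005), gid1 (−0.83 to −0.64) and CIGR2 (−1.07 to −0.95) stay far from 0, and under ABA the bar of gid1 (−0.09 to 0.01) crosses it.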

How the data were processed

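The deposited table holds 1 ratio per feature and array, taken here as log10. Per the labels' protocols, the authors made the ratios with LOWESS normalization. For log base and background correction nothing is stated (not given in the sources used here), and log10 is this array software's convention; values were multiplied by 3.32 to give log2. If the deposited values were natural logs, the fold of GA20OX3 under GA would be 1.36 in place of 2.04, and 1.24 if they were log2. Of 22575 features, 17788 have a gene in the platform annotation, 17769 of them 1 gene; exact zeros (1 to 6 per array among these) were taken as missing, and 3 values per hormone were required, leaving 17782. Names came from RefSeq's annotation of ASM3414082v1. Synonyms that belong to other proteins were set apart, and gene descriptions were not used here. Each probe was fitted with limma 3.58.1 (R 4.3.3) on all 8 arrays with a mean for each hormone and a shared dye term (5 residual and 3.93 prior degrees of freedom), after a test on simulated data. The alternatives are dye terms, samples, normalization, moderation, weights, filters, thresholds, direction and leaving out each array. The rule for named genes took all members, pathway genes called, and the 3 probes most like each member; the pathway genes not called, and those with shared names, are named beside it, after their values were seen. Members and lists were chosen with earlier results of these data known.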

Additional observations from a re-analysis of the deposited data

Results flagged for a closer look

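The change under ABA differed from the change under GA in all 7 genes by the test of the difference itself (limma, adjusted p under 0.05), a call shared by 50.0 percent of all probes. ABA minus GA was 1.03 for CIGR2, 0.95 for GA20OX3, 0.65 for gid1, 0.39 for CIGR1 and 0.17 for CYP714D1, and it was −0.60 for CYP88A5 and −0.22 for SPY. For CYP88A5 every ABA array was below 0 and every GA array above it. The signs of SPY split the same way, but its GA change was not called and GA arrays 07 and 08 stood at 0.00 and 0.03. The share of all probes with such a split was not counted. No array stood apart from the other 3 of its hormone in any of the 14 groups of 4 values examined by Dixon's ratio at its 95% limit.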

How the results depend on the processing

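Of 21 values (7 genes, 3 comparisons) under up to 22 alternatives that keep the direction of the ratios, 415 kept their sign and their side of the threshold, 32 lost a call, 6 gained one and 2 changed sign. The 2 were gid1 under ABA, not called, at 0.0073 with quantile normalization and 0.0080 without ABA array 23 (−0.090 to 0.0080 leaving out 1 array at a time). In many of the alternatives the fitted change of these genes stays the same by design, so only the call could move. These are the dye terms, moderation, filters, thresholds and, for a single hormone, leaving out an array of the other. The 415 therefore include cases in which the sign could not change. Without the dye term ABA called 4443 probes in place of 7430, and 2 of the 7 genes in place of 4. With a 2-fold minimum ABA called 242 probes, GA 362 and the difference 820, and of the 7 genes limma then called 0 under ABA (5 at an unadjusted p under 0.05 without the minimum), 1 under GA (GA20OX3) and 1 for the difference (CIGR2). Leaving out 1 array at a time, the ABA count of the 7 genes ran from 2 (without array 24) to 5, the GA count from 4 to 5, and the difference kept 7; the counts of all probes ran from 5540 to 8858, 7239 to 9662 and 7560 to 9913. Quantile normalization gave 4283 probes up and 4289 down under GA, and for the difference 4741 up and 4432 down.

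With the ratios left as deposited, opposite dyes cancel. ABA then called 578 probes, GA 6 and the difference 21, and limma called 0 of the 7 genes in each, with 0 at an unadjusted p under 0.05. The genes that changed sign were CYP88A5 (0.061), CYP714D1 (−0.107), SPY (0.075) and CIGR2 (−0.053) under ABA, SPY (−0.042), CIGR1 (0.076) and CIGR2 (0.051) under GA, and GA20OX3 (−0.046), CYP714D1 (−0.020), gid1 (−0.19), SPY (0.12) and CIGR2 (−0.10) for the difference. In an alternative chosen after seeing the data, the Cy3 arrays were turned as in the main fit and the sign of all GA arrays was then reversed. The difference then called 8007 probes and 3 of the 7 genes. It would be −1.11 for GA20OX3, −0.73 for gid1, −0.95 for CIGR2 and, not called, 0.16 for CYP88A5. No paired analysis was possible because the groups share no array number. Signal over background, and so which probes were dim, was not analysed here.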

Other observations

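Some names of the pathway list are shared by other proteins, and their probes were left out of the counts above. GID2 is the name of the F-box protein that works with the receptor, but it is also a synonym of GF14E, a 14-3-3 gene whose annotated span overlaps a separate gene named GID2. The 2 probes listed for GF14E stood at −0.23 ± 0.06 and −0.14 ± 0.16 under ABA. Under GA they stood at −0.01 ± 0.11 and 0.78 ± 0.11 (limma adjusted p = 5.08e-07 for the second), so that 1 probe rose and the other did not pass. Which of the 2 overlapping genes each probe reads was not tested. SLY1, a name used both for an F-box protein and for a vesicle transport protein, was called lower on both of its probes under ABA (−0.34 and −0.26) and under GA (−0.26 and −0.22). Under ABA the first probe of SLY1 was low on all 4 arrays, while the second stood at 0.01 and 0.03 on arrays 24 and 20 and at −0.48 and −0.58 on arrays 19 and 23, so that its fall was on the Cy5 pair. Under GA both SLY1 probes were below 0 on all 4 arrays and lower on the Cy5 pair. The other names set apart were CPS (gene CARB), HDR1 and RGP1 (genes OsUAM1 and RGP1). CARB was called lower under ABA (−0.33, limma adjusted p = 1.80e-05) and under GA (−0.59, limma adjusted p = 2.61e-07). HDR1 was called higher under GA (0.12) and not called under ABA (−0.07). OsUAM1 was called lower under ABA (−0.14) and higher under GA (0.24). RGP1 was called higher under ABA (0.24) and not called under GA (0.01).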
